A study of Rattus norvegicus with 12 samples.

Results

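The genes of the cytosolic ribosomal proteins were examined in rat calvaria, the flat bone of the skull roof, 6 h after surgery. A gene was included when its name in the array files began with Rps or Rpl followed by a digit, or was Rplp0, Rplp1 or Rplp2, and when a probe for it was well above background on all 12 arrays. The Rps6k kinases were left out. Of 88 such names, 87 met this and 1, Rps4x-ps1, did not, its probe being above background on 3 arrays. The 87 genes stand among 22937 genes tested, with 33 small subunit names, 51 large subunit names and the 3 genes of the P stalk. The list holds paralogs and pseudogene names beside the core genes, and it holds Rps19bp1, which encodes a protein that binds RPS19 and is no subunit itself.

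Bone of rats 10 weeks old was taken in 3 groups of 4 arrays each. In the laser group an Er:YAG laser, whose infrared light water absorbs strongly, removed a rectangle of bone of 8 by 3 mm, passing over it 3 times (127 mJ pulses, 20 Hz). In the bur group a rectangle of that size was drilled. The control group had the periosteum removed and no bone cut, so all 3 groups had been operated on and no group shows untouched bone. No label ties the arrays to single animals, so p-values measure only the spread between these samples, which may be technical.

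Ribosomal proteins surround the ribosomal RNA of the small 40S and large 60S subunits, and a cell makes them in step with one another. Their mRNAs are among the most abundant of most cells. Most begin with a C and a run of pyrimidines, the terminal oligopyrimidine (TOP) tract, through which the mTOR pathway sets their translation through the protein LARP1. In bone, cells that secrete collagen matrix and marrow cells that divide quickly both need many ribosomes, and loss of 1 copy of several of these genes causes Diamond-Blackfan anemia, a failure of red cell formation.

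The TOP tract is shown first, since it is a known feature of this class of mRNA that the rule did not use. RefSeq promoter windows on the GRCr8 assembly, 250 bases before to 50 after the annotated start, were available for 68 of the 87 genes. A tract was scored, on the transcribed strand, as a C followed by at least 5 bases that are each C or T, with the C within 10 bases of the annotated start. It was found in 43 of the 68 windows (63.2%), against 17.8% of the 33469 windows in the table. The following windows run from 30 bases before the annotated start to 20 bases from it, with the tract in capitals. They show 4 core genes whose mRNA rose, the stalk gene Rplp0, and Rps2, the one gene that fell with bur on the percentile scale described with the levels.
Rps23, GRCr8 chr2:23814487-23814536, plus strand: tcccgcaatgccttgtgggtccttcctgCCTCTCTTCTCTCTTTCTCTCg
Rpl27a, GRCr8 chr1:172974543-172974592, plus strand: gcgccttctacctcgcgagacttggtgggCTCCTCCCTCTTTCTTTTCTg
Rpl35, GRCr8 chr3:43165902-43165951, minus strand: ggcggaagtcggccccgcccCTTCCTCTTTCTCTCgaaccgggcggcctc
Rpl10, GRCr8 chrX:157205820-157205869, plus strand: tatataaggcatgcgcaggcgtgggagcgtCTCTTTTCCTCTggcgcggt
Rplp0, GRCr8 chr12:46718371-46718420, minus strand: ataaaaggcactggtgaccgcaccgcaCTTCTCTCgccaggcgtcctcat
Rps2, GRCr8 chr10:14251818-14251867, plus strand: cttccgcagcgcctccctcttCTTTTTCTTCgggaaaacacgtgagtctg

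The longest tract, 21 bases, lay in Rps23, which encodes a small subunit protein of the decoding centre, and the median over the 43 genes was 10 bases. It was found in 8 of 12 windows (66.7%) of elongation factors and other known TOP genes, and in 10 of 59 (16.9%) of the genes of mitochondrial ribosomal proteins. Of the 6 windows of paralogs and Rps19bp1 it was found in 2. Rps27 and Rps27l show a pair that differed, the first with a tract and the second with none in these letters.
Rps27, GRCr8 chr2:177964587-177964636, minus strand: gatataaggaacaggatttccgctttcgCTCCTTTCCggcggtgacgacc
Rps27l, GRCr8 chr8:76443628-76443677, plus strand: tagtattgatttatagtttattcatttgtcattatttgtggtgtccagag
An annotated start can lie off the start used in bone, so a window without the tract says only that these letters were not found there.

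Levels are log2 processed signals relative to each array's 75th percentile. On this scale most ribosomal protein genes rose after laser ablation, with 72 of 87 higher than control, 0 lower and 15 not passing (limma, adjusted p below 0.05), but under quantile normalization of the same arrays only 15 were higher and 8 were lower. Among all genes 32.2% were higher and 17.6% lower on the percentile scale, and 26.7% and 20.7% under quantile normalization. The genes' median log2 fold change was 0.59 on the percentile scale and 0.05 under quantile normalization, where the median of all genes was 0.21 and 0.09. Relative to all genes, the median shift of the ribosomal protein genes was therefore 0.38 on the first scale and −0.04 on the second. Both the count and the direction of the group relative to all genes thus depended on the scaling.

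The bur group gave the same picture. Here 57 of the 87 genes were higher than control and 1 was lower on the percentile scale, against 32.7% and 18.3% of all genes, while quantile normalization gave 15 higher and 9 lower, against 26.2% and 21.7%. The median was 0.48 on the percentile scale and 0.10 under quantile normalization, or 0.25 and −0.01 relative to all genes. The laser and bur comparisons share the 4 control arrays and so are not independent.

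The arrays themselves separated by group on the percentile scale. The median ribosomal protein gene lay 0.42, 0.40, 0.35 and 0.24 log2 units below its own 12-array mean on control replicates 4, 3, 1 and 2. It lay above that mean on all 4 laser arrays, by 0.11 to 0.38, and on 3 of the 4 bur arrays, with a range of −0.03 to 0.22. The number of genes above their own mean was 1 to 14 per control array, 77 to 87 per laser array and 32 to 81 per bur array. No control array overlapped a laser or bur array in this median. Before scaling the control arrays were again the lowest, while the laser and bur arrays overlapped, with a median log2 signal of 15.15 to 15.34 on the control arrays, 15.88 to 16.26 on the laser arrays and 15.55 to 16.57 on the bur arrays.

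**Figure D1:**
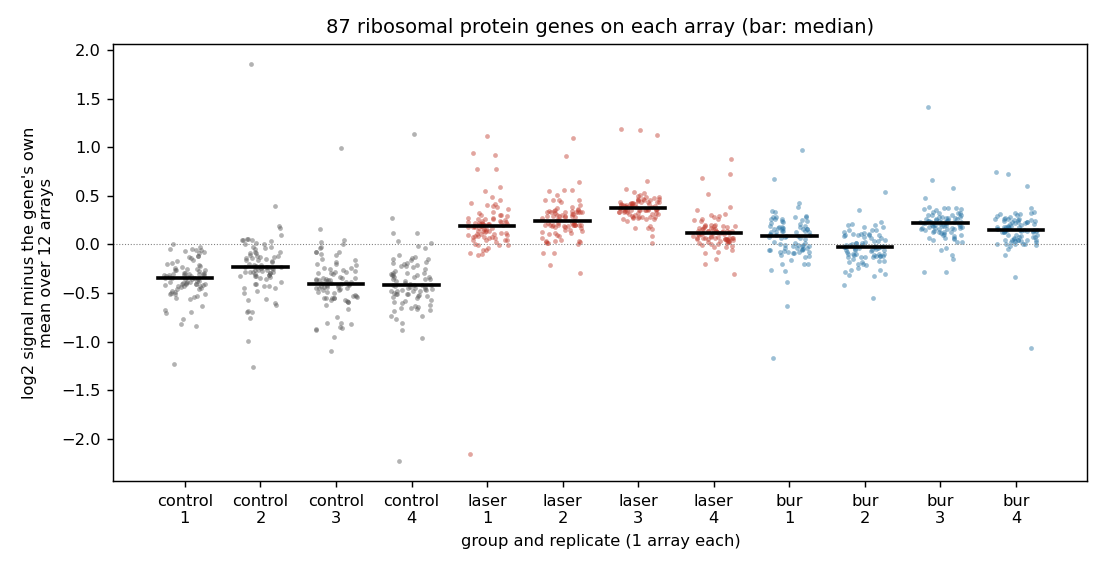
Each point is 1 of 87 ribosomal protein genes on 1 array (x axis: group and replicate), plotted as its log2 signal on the percentile scale minus its own mean over 12 arrays; black bars are medians. The control medians lie between −0.42 and −0.24 and the laser medians between 0.11 and 0.38; under quantile normalization the median shift of laser against control shrinks to 0.05.

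These genes are among the brightest on the array, and 78 of the 87 lay in the brightest 5% of genes by mean level. The other 1069 genes of the brightest 5% also shifted upward on the percentile scale, with 558 higher (52.2%) and a median of 0.43 for laser, and 506 higher (47.3%) and a median of 0.36 for bur. The median ribosomal protein gene exceeded the median of those bright genes by 0.16 for laser and 0.12 for bur on the percentile scale, and by −0.02 and 0.01 under quantile normalization. Quantile normalization makes the distribution of values the same on every array, so it removes any shift that the brightest genes share. Spike-in RNA is meant to be added in equal amount to each labelling, and whether it was so here was not checked. The spike-in signal read 4.92 to 5.34 log2 units on the control arrays and 8.13 to 8.83 on the treated arrays. Its part in the shift was not tested.

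Median centring gave 51 genes higher and 0 lower for laser, against 25.5% and 18.5% of all genes, and 26 higher and 1 lower for bur, against 22.6% and 21.3%. limma on the authors' deposited table of log2 quantile-normalized values gave 20 higher and 11 lower for laser (all genes 26.8% and 19.7%) and 23 higher and 16 lower for bur (all genes 25% and 21.3%). The authors' deposited table of values carries the probe used here for 45 of the 87 genes and another probe for 42. In the authors' deposited tables of comparisons, 11 of those 45 probes were higher and 6 lower for laser, where 29% and 21.6% of all probes were. For bur 11 were higher and 8 lower, against 28.4% and 22.7%, and between laser and bur 0 passed in either direction, against 0.00401% and 0%.

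**Figure D2:**
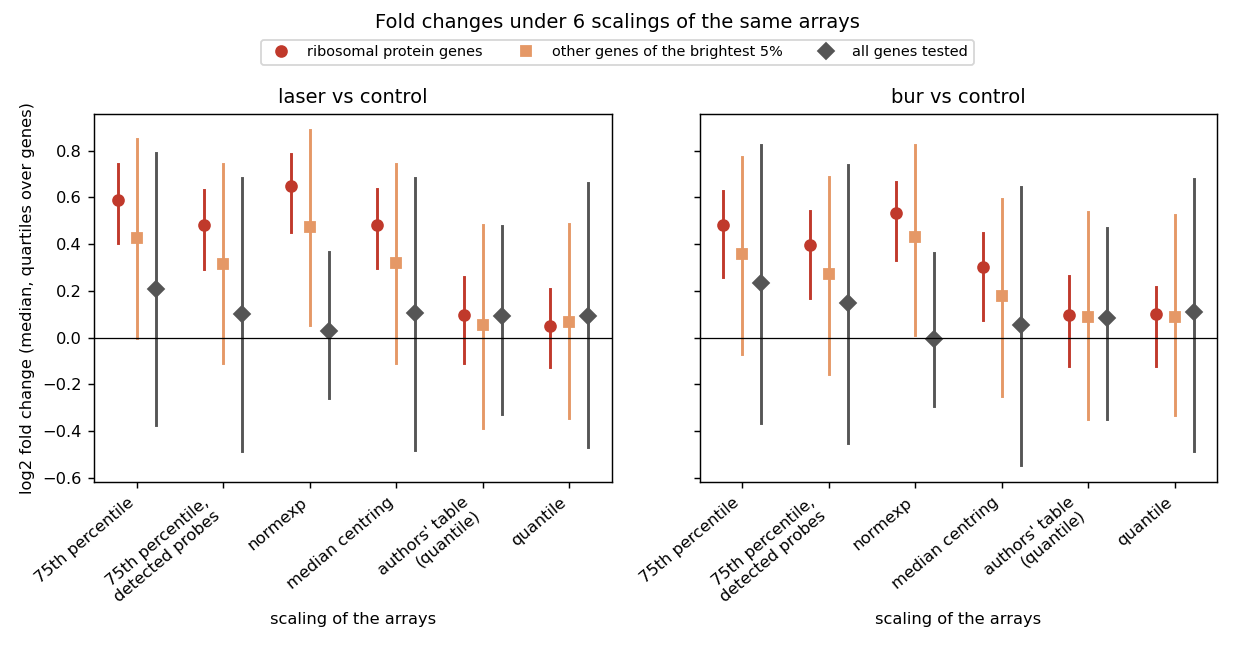
Median (symbol) and quartiles (line) over genes of the log2 fold change against control, under 6 scalings of the same 12 arrays, for the 87 ribosomal protein genes, the 1069 other genes of the brightest 5% and all genes tested. The ribosomal protein median falls from 0.59 (laser) and 0.48 (bur) on the 75th percentile scale to 0.05 and 0.10 under quantile normalization, beside 0.09 and 0.11 for all genes.

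A smaller set rose whichever scaling was used. Over the 6 scalings, 12 genes were higher with laser in each one, namely Rpl10l, Rpl14, Rpl22l1, Rpl27, Rpl35, Rpl36a, Rpl36al, Rpl39, Rpl39l, Rps23, Rps27l and Rps4y2. With bur 11 genes were higher in each one, 9 of them on the laser list, together with Rpl27a and Rpl31. No gene was lower under all 6 scalings in either comparison. The share of all genes that were higher under all 6 scalings was not counted. Under quantile normalization alone 17.2% of the 87 genes were higher in each comparison, against 26.7% (laser) and 26.2% (bur) of all genes. At the other end, Rpl3, Rpl4, Rpl5, Rps2 and Rps3a passed as lower with laser both under quantile normalization and in the authors' values, while on the percentile scale none of these passed. These sets were picked out after their values were seen.

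The spread among the genes was wide. On the percentile scale the laser fold changes ran from −1.64 to 2.19 on the log2 scale with an SD between genes of 0.43, and the bur fold changes from −1.33 to 1.97 with an SD of 0.39. Rps23, singled out after its values were seen, had the smallest adjusted p of the list in both comparisons (0.000116 and 0.000209). It read 6.85, 6.67, 6.51 and 6.49 in control, 7.75, 7.82, 7.91 and 7.67 with laser, and 7.62, 7.58, 7.84 and 7.65 with bur, with no overlap. Its log2 fold changes of 1.16 ± 0.12 and 1.04 ± 0.12 exceeded the list's median by 0.57 and 0.56, and they were 0.71 and 0.74 under quantile normalization.

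**Figure D3:**
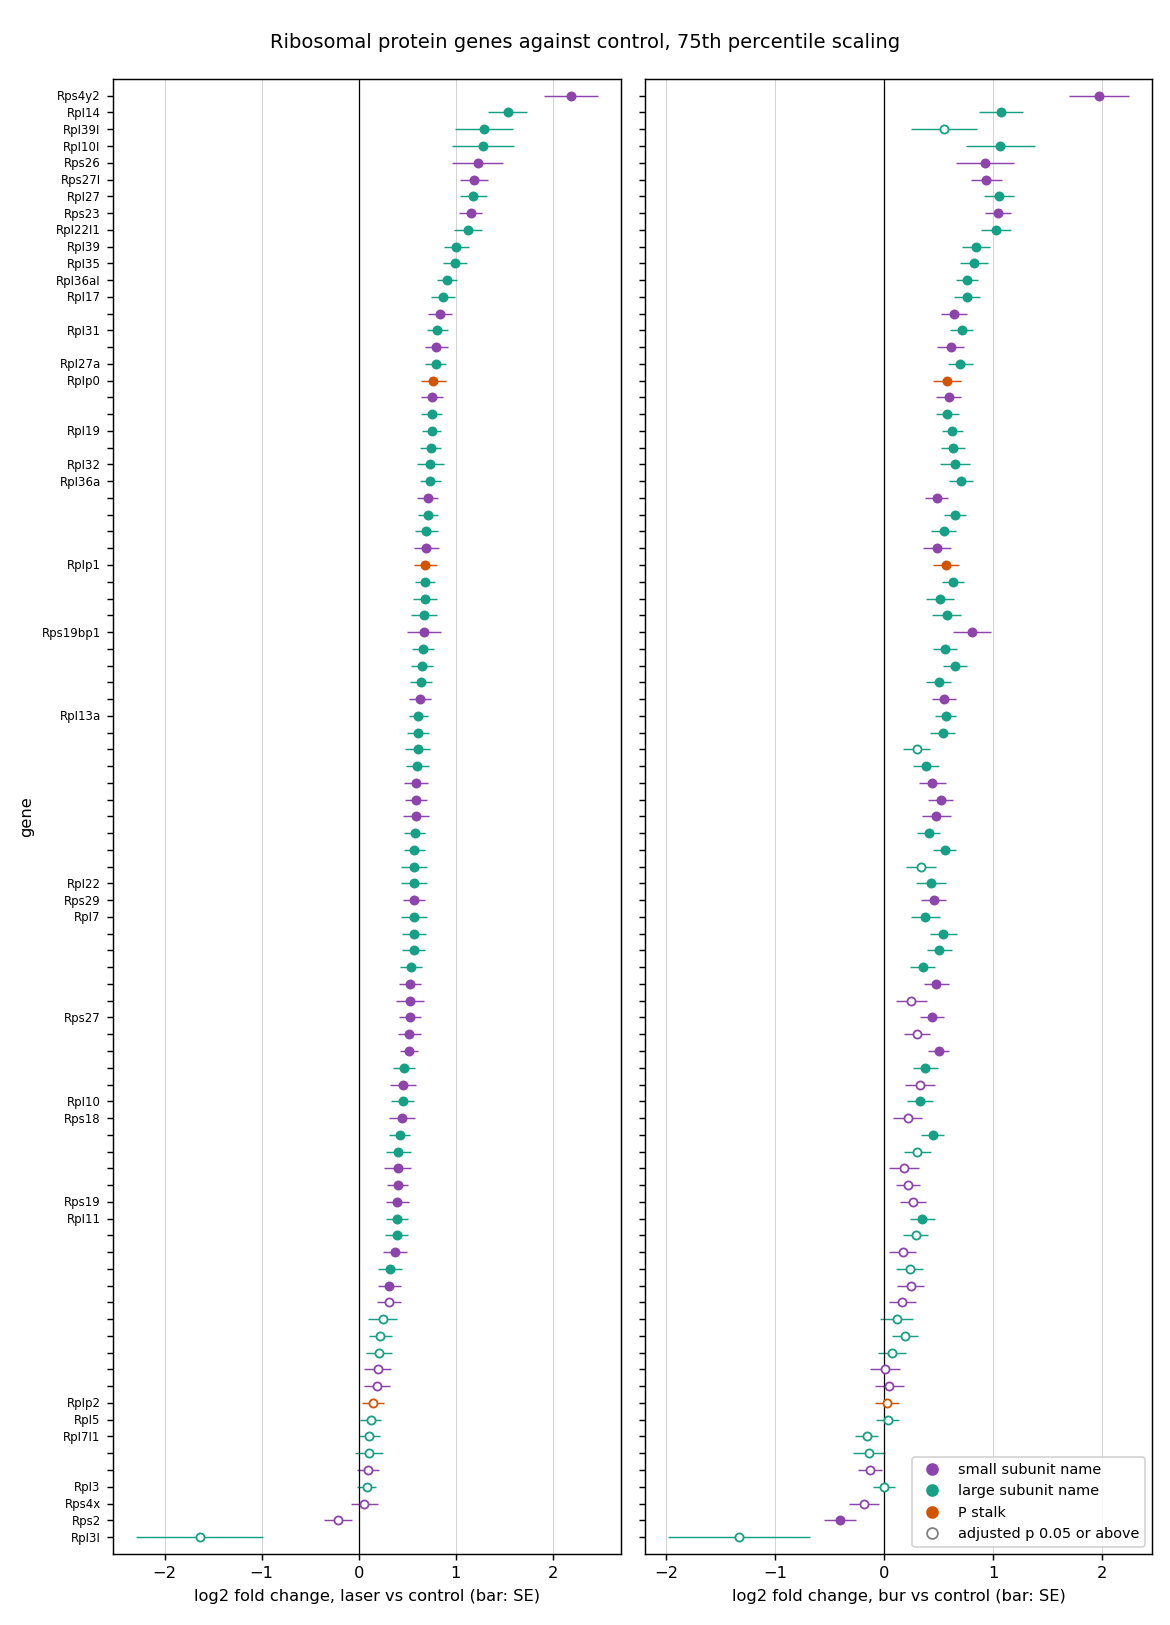
Log2 fold change with its standard error for each of the 87 genes, laser (left) and bur (right) against control, on the 75th percentile scale, ordered by the laser value and coloured by subunit; open symbols did not pass adjusted p 0.05, and gene labels are given for the main genes of the text. Values run from Rpl3l at −1.64 to Rps4y2 at 2.19 for laser; under quantile normalization most of the filled symbols do not pass.

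Rps4y2 showed the largest rise. It is named after the Y-linked copies of the small subunit protein S4, and its probe lies on chromosome 4 of the array's build. Its levels were 0.29, 0.53, 0.42 and −0.71 on the control arrays, 2.46, 1.97, 2.65 and 2.20 on the laser arrays, and 2.49, 1.69, 2.10 and 2.12 on the bur arrays. Every treated array lay above every control array. The log2 fold change was 2.19 ± 0.28 (SE, 4 against 4 arrays; 4.56-fold, adjusted p = 0.000251) for laser and 1.97 ± 0.28 (3.92-fold, adjusted p = 0.000441) for bur, and it was 2.12 and 1.93 under quantile normalization. Its partner Rps4x, the main S4 gene, read 5.19, 5.43, 5.14 and 5.36 on the control arrays, 5.38, 5.43, 5.52 and 5.04 with laser and 5.04, 4.92, 5.13 and 5.29 with bur. The Rps4x groups overlapped, and its fold changes of 0.06 ± 0.14 and −0.19 ± 0.14 did not pass (adjusted p = 0.73 and 0.271), although under quantile normalization the bur value was −0.40 (adjusted p = 0.017).

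Rpl14, a large subunit gene, was next. Its levels were 7.27, 7.33, 7.14 and 7.13 in control, 9.21, 8.99, 8.45 and 8.37 with laser, and 8.51, 7.91, 8.41 and 8.32 with bur. The groups did not overlap, and the fold changes were 1.54 ± 0.20 (2.90-fold, adjusted p = 0.000285) and 1.07 ± 0.20 (2.11-fold, adjusted p = 0.00175). The 2 laser arrays of one slide read higher than the 2 of the other. In the authors' values, which carry another probe for this gene, the fold changes were 0.36 and 0.06.

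Rps26, a small subunit gene at the mRNA exit channel, moved in the same way with more scatter. It read 7.24, 7.27, 7.07 and 7.07 in control, 8.80, 8.98, 7.96 and 7.82 with laser, and 8.55, 7.89, 8.12 and 7.77 with bur. The fold changes were 1.23 ± 0.27 (adjusted p = 0.00364) and 0.92 ± 0.27 (adjusted p = 0.015). Its laser arrays again split by slide. Another probe of the gene did not move, as described with the probe positions further on.

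Rpl27, a large subunit gene, read 2.89, 3.16, 2.85 and 3.05 in control, 4.29, 4.24, 4.38 and 3.78 with laser, and 4.07, 3.96, 4.06 and 4.07 with bur. These groups were well apart, and the fold changes were 1.18 ± 0.14 (2.27-fold, adjusted p = 0.000197) for laser and 1.05 ± 0.14 (2.07-fold, adjusted p = 0.000363) for bur. Both held under quantile normalization, at 0.95 and 0.86.

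Rps2 was the only gene to pass as lower on the percentile scale. It encodes a small subunit protein at the entry of the mRNA channel. It read 6.18, 6.57, 6.33 and 6.45 in control and 5.79, 5.85, 6.14 and 6.13 with bur, where the groups did not overlap. With laser it read 6.09, 6.09, 6.46 and 6.03, which overlapped control. The bur fold change was −0.41 ± 0.14 (adjusted p = 0.0351), and the laser value of −0.22 ± 0.14 did not pass (adjusted p = 0.225). The bur call was lost without control replicate 2, 3 or 4 or bur replicate 1 or 2 (adjusted p = 0.096, 0.059, 0.078, 0.087 and 0.085), and both comparisons passed as lower under quantile normalization, at −0.57 and −0.66.

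The small and large subunits can be set side by side. Of the 33 small subunit genes 27 were higher with laser and 18 with bur, with 1 lower, and their medians were 0.53 and 0.44 on the percentile scale. Of the 51 large subunit genes 43 were higher with laser and 37 with bur, with medians of 0.61 and 0.54. Among all genes 32.2% and 32.7% were higher on this scale. Quantile normalization left 4 (12.1%) and 3 (9.09%) small subunit genes higher and 3 and 4 lower. For the large subunit 11 (21.6%) and 12 (23.5%) were then higher and 4 lower in each comparison. Among all genes 26.7% and 26.2% were higher and 20.7% and 21.7% lower under that scaling. Under quantile normalization the medians were 0.01 and 0.06 for the small subunit and 0.07 and 0.12 for the large, and the difference between subunits was not tested.

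The P stalk is the acidic arm of the large subunit that recruits elongation factors, and 2 of its 3 genes passed as higher on the percentile scale. Among all genes 32.2% (laser) and 32.7% (bur) were higher. Rplp0, the stalk's base, read 8.93, 8.88, 8.61 and 8.52 in control, 9.44, 9.46, 9.64 and 9.48 with laser, and 9.47, 9.14, 9.24 and 9.41 with bur, with no overlap. Its fold changes were 0.77 ± 0.13 and 0.58 ± 0.13 (adjusted p = 0.000941 and 0.00418), and 0.22 and 0.23 under quantile normalization, where neither passed. Rplp1 gave 0.69 ± 0.12 and 0.56 ± 0.12 on the percentile scale and 0.14 in both under quantile normalization. Rplp2, the partner with which Rplp1 forms dimers, read 8.31, 8.47, 8.45 and 8.23 in control, 8.52, 8.46, 8.67 and 8.41 with laser, and 8.30, 8.30, 8.54 and 8.42 with bur. Its groups overlapped and its fold changes of 0.15 ± 0.11 and 0.03 ± 0.11 did not pass, while quantile normalization turned them to −0.45 and −0.40, both passing as lower (adjusted p = 0.0068 and 0.011).

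The 2 proteins of the 5S particle, Rpl5 and Rpl11, bind 5S RNA and, when free of ribosomes, the p53 regulator Mdm2. Rpl5 read 7.86, 7.94, 7.95 and 7.82 in control, 7.85, 7.99, 8.23 and 8.00 with laser, and 7.86, 7.87, 7.99 and 7.97 with bur. Its groups overlapped, and its fold changes were 0.12 ± 0.11 and 0.03 ± 0.11 (adjusted p = 0.355 and 0.819), against −0.50 and −0.42 under quantile normalization, which passed as lower. Rpl11 rose by 0.40 ± 0.11 and 0.35 ± 0.11 (adjusted p = 0.0137 and 0.0244) with no overlap. Quantile normalization gave −0.18 and −0.08 for Rpl11, which did not pass. The bur call of Rpl11 was lost without control replicate 1 or 4 or bur replicate 4 (adjusted p = 0.055, 0.051 and 0.063).

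Several of these genes serve as references in PCR work, among them Rplp0, Rpl13a, Rps18, Rpl32, Rpl19 and Rps29. All 6 were higher with laser on the percentile scale and 5 were higher with bur, the exception being Rps18 (0.22 ± 0.13, adjusted p = 0.19). The shares higher were 82.8% and 65.5% for the 87 genes and 32.2% and 32.7% for all genes. Under quantile normalization 0 of the 6 passed in either comparison, where 26.7% and 26.2% of all genes were higher. In the authors' values 1 was higher and 1 lower with laser, and 2 and 1 with bur. Rpl19 read 8.18, 8.26, 8.06 and 8.07 in control, 8.83, 8.94, 9.03 and 8.78 with laser, and 8.74, 8.75, 8.80 and 8.79 with bur. Its fold changes were 0.75 ± 0.10 and 0.63 ± 0.10 (adjusted p = 0.000308 and 0.000805) on the percentile scale and 0.14 and 0.21 under quantile normalization. Rpl32 gave 0.74 ± 0.14 and 0.65 ± 0.14, Rps29 0.57 ± 0.11 and 0.45 ± 0.11, and Rpl13a 0.61 ± 0.10 and 0.56 ± 0.10 on the percentile scale. In the authors' values, which carry another probe of Rpl13a, this gene was lower, at −0.37 and −0.29. The Rpl19 probe shares at least 30 bases with probes of other names, so its copy is uncertain.

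Among the paralogs most passed as higher under both scalings. Of the 9 measured genes of this list, which counts Rps19bp1, 7 were higher with laser and 6 with bur on the percentile scale. Among all genes 32.2% and 32.7% were. Under quantile normalization 6 and 5 of the 9 were higher, against 26.7% and 26.2% of all genes. The list's median level was 1.52, and only 1 of the 9 lay in the brightest 5% of genes. The part of this level in the counts was not tested. The list's median log2 fold change was 1.13 and 0.81 on the percentile scale and 0.90 and 0.55 under quantile normalization. Several of these genes are known to be restricted to certain tissues or to respond to stress.

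Rps27l, a paralog of Rps27 known as a target of p53, read 3.70, 3.81, 3.51 and 3.64 in control, 5.15, 4.75, 4.94 and 4.58 with laser, and 4.66, 4.39, 4.60 and 4.75 with bur. The groups were apart, with fold changes of 1.19 ± 0.14 and 0.94 ± 0.14 (adjusted p = 0.000206 and 0.000637), and 0.94 and 0.74 under quantile normalization. Rps27 rose less, by 0.53 ± 0.11 and 0.44 ± 0.11 (adjusted p = 0.0033 and 0.00832), with −0.039 and 0.016 under quantile normalization. Rpl22l1, the paralog of Rpl22, read 2.71, 2.86, 2.68 and 2.80 in control, 4.07, 4.04, 3.92 and 3.54 with laser, and 3.72, 4.02, 3.64 and 3.79 with bur. Its fold changes of 1.13 ± 0.14 and 1.03 ± 0.14 compared with 0.57 ± 0.13 and 0.43 ± 0.13 for Rpl22. Both stood apart from control, and the bur call of Rpl22 was lost without control replicate 1 or 3 or bur replicate 3 (adjusted p = 0.054, 0.053 and 0.053).

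Rpl36al, a copy of Rpl36a, gave 0.91 ± 0.10 and 0.76 ± 0.10, and Rpl36a gave 0.74 ± 0.11 and 0.70 ± 0.11. Both genes stood apart from control and stayed higher under quantile normalization in both comparisons. RefSeq now calls the transcript behind the Rpl36al probe Rpl36al1.

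Rpl10l and Rpl39l, copies known chiefly from testis, were dim here. Rpl10l read −1.42, −2.17, −1.78 and −1.39 in control, −0.77, −1.12, 0.27 and −0.02 with laser, and −0.68, −1.11, −0.53 and −0.19 with bur. Its fold changes were 1.28 ± 0.32 and 1.06 ± 0.32 (adjusted p = 0.00737 and 0.0173), and the bur call was lost without control replicate 2 (adjusted p = 0.053). Rpl39l read −3.08, −3.07, −3.13 and −2.73 in control, −1.61, −2.37, −1.20 and −1.66 with laser, and −3.02, −2.49, −2.67 and −1.64 with bur. It rose with laser by 1.29 ± 0.30 (adjusted p = 0.00515), while its bur group overlapped control and did not pass (0.55 ± 0.30, adjusted p = 0.145). The laser and bur values of Rpl39l differed by 0.75 ± 0.30, which did not pass (adjusted p = 0.707). The core genes Rpl10 and Rpl39 gave 0.46 ± 0.12 and 1.01 ± 0.13 with laser, and the Rpl39 rise held under quantile normalization at 0.52. With bur Rpl10 gave 0.33 ± 0.12 (adjusted p = 0.0376), a call lost without control replicate 1 or 3 or bur replicate 1, 3 or 4, with adjusted p between 0.068 and 0.10. These Rpl10 values are from the probe starting at base 458, with a mean level of 6.87. Another Rpl10 probe, starting at base 692 with a mean level of 6.72, gave 1.33 ± 0.18 with laser and 1.16 ± 0.18 with bur. Both passed (limma, adjusted p over all probes 0.00032 and 0.00066), so the size of the Rpl10 rise depended on the probe.

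Rpl3l, the muscle form of Rpl3, had the lowest fold changes of the list and a wide scatter. It read −1.50, 0.38, −0.48 and −0.34 in control, −3.63, −1.77, −1.32 and −1.78 with laser, and −2.64, −2.03, −0.07 and −2.54 with bur. The groups overlapped, and −1.64 ± 0.65 and −1.33 ± 0.65 did not pass (adjusted p = 0.0557 and 0.107). Both passed as lower without bur replicate 3 (adjusted p = 0.023 and 0.016), with the replicate block (0.014 and 0.031) and with the treated arrays of the first slide alone (0.027 and 0.0496). The laser value passed also without control replicate 1 or laser replicate 3 (adjusted p = 0.037 and 0.048) and, with adjusted p between 0.040 and 0.048, under the percentile over probes detected on all arrays, normexp, the filter on all 12 arrays, 2 groups in the fit, the intensity trend and array weights. Skeletal muscle markers ran from −2.48 to 4.48 as the mean level of 8 genes on the control arrays and from −2.62 to 0.38 on the treated arrays, and their part in the Rpl3l values was not tested. Rpl3 gave 0.08 ± 0.10 and −0.0042 ± 0.10, neither passing, with −0.44 and −0.40 under quantile normalization, both passing as lower (adjusted p = 0.004 and 0.0059).

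Rpl7l1, which takes part in the assembly of the large subunit, did not pass in either comparison (0.11 ± 0.11 and −0.16 ± 0.11). Its core gene Rpl7 gave 0.57 ± 0.13 and 0.38 ± 0.13 on the percentile scale. The bur call of Rpl7 was lost without control replicate 1, 3 or 4 or bur replicate 3 or 4, with adjusted p between 0.053 and 0.085. Rps19bp1 rose by 0.67 ± 0.18 and 0.81 ± 0.18 at a raw signal of only 11 to 14 in control, and with normexp background correction the values were −0.0091 and −0.018. Rps19 gave 0.40 ± 0.12 with laser (adjusted p = 0.0174), which did not hold without control replicate 3 (adjusted p = 0.051), and 0.27 ± 0.12 with bur, which did not pass (adjusted p = 0.0818).

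**Figure D4:**
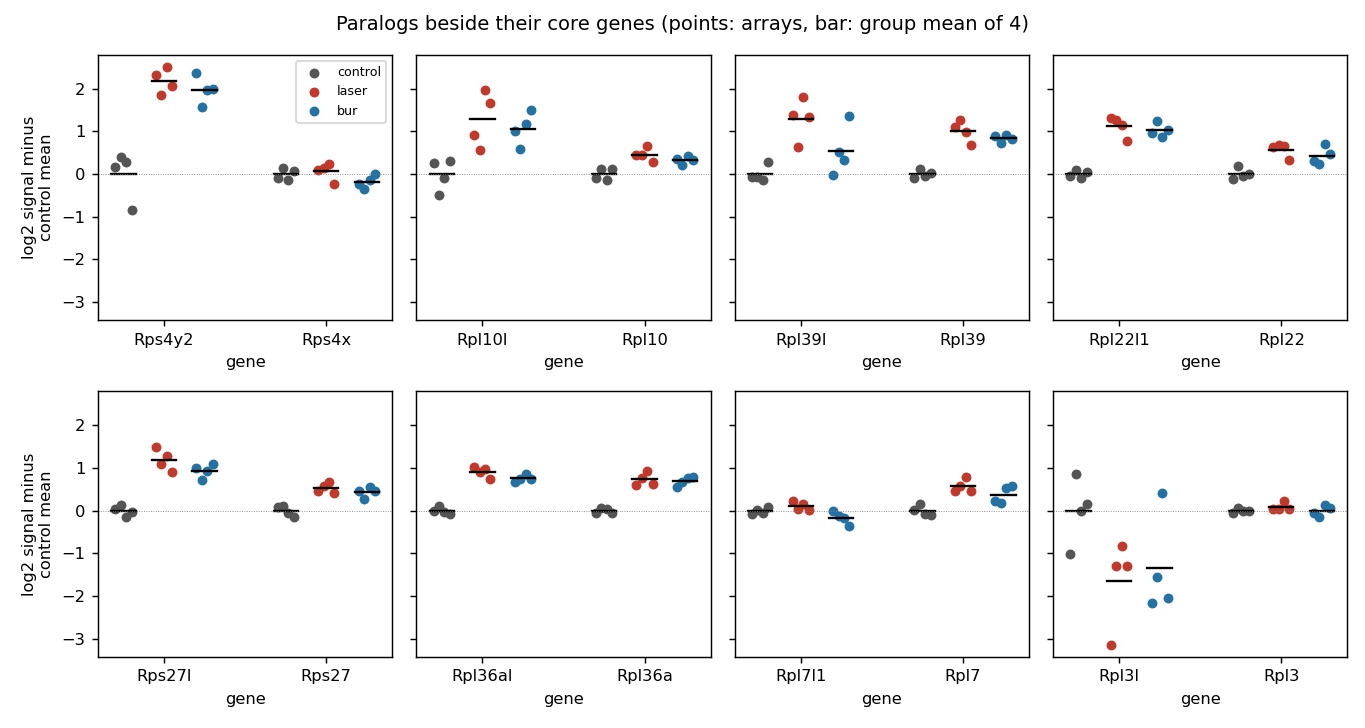
Levels of 8 paralogs and their core genes on each array (points), as log2 signal on the percentile scale minus the control mean, with bars at the group means of 4 arrays. Rps4y2 lies about 2.19 (laser) and 1.97 (bur) above control while Rps4x stays at 0.06 and −0.19; Rpl3l scatters below control and does not pass in this fit. Under quantile normalization the bars of core genes such as Rps27 fall to −0.039 and 0.016.

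Probes along one transcript did not always read the same change. Of the 87 genes 59 had several probes above background on all arrays, and in 51 of them every probe was positive with laser, in 7 the signs were mixed and in 1 all were negative. With bur the counts were 45, 13 and 1. For 39 genes a first and a last probe on the same transcript lay at least 100 bases apart. The probe nearer the 3′ end gave the larger fold change in 29 of the 39 (74.4%) with laser and in 32 (82.1%) with bur, with a median difference of 0.24 and 0.22 log2 units. Among 2213 other transcripts with such a pair of probes the 3′ probe gave the larger value in 65.1% and 61.5%, with median differences of 0.23 and 0.17. The 3′ probe was also the brighter in 34 of the 39 genes, so position and brightness go together here. Among all 59 member probes that contain AATAAA or ATTAAA, the letters of the polyadenylation signal near the mRNA's end, the median was 0.71 with laser and 0.58 with bur, against 0.48 and 0.35 for the 151 without them. The probes with the letters were also brighter, with a median level of 7.95 against 6.86, so letters and brightness go together as well. The part of each was not tested, and probes of other genes with these letters were not set beside them. These hexamers were looked for on the probe's own strand and occur in 12.6% of all probes on the array.

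Rps26, Rpl13a, Rpl14 and Rpl17, chosen here after their values were seen, show the pattern. The probes near the 5′ end are printed first, as deposited with the arrays and with coordinates of the array design on RGSCv3.4, each 60 bases long and without capitals.
Rps26, first probe, RGSCv3.4 chr7:1920289-1920348, minus strand: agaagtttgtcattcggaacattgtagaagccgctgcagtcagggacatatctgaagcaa
Rpl13a, first probe, RGSCv3.4 chr1:95601933-95602088, minus strand, across an intron: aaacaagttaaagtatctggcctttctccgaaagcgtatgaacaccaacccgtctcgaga
Rpl14, first probe, RGSCv3.4 chr8:125583392-125584222, plus strand, across an intron: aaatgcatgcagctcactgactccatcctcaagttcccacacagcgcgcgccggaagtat
For the probes near the 3′ end 30 of the 60 bases are shown, with the polyadenylation signal letters in capitals, or for Rps26 the 30 bases that it shares with a probe of another name, RGD1562415.
Rpl13a, last probe, RGSCv3.4 chr1:95600818-95600847, minus strand: tggtgtgaacccAATAAAgactgtttgtgc
Rpl14, last probe, RGSCv3.4 chr8:125584935-125584964, plus strand: ggctacacaaagAATAAAggttctttttga
Rps26, last probe, RGSCv3.4 chr7:1919199-1919228, minus strand: AAGCCCATGTAAAGAGGTGATTTCATGAAG

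The first Rps26 probe, starting at base 132 of the transcript, read 7.32, 7.54, 7.25 and 7.33 in control, 7.33, 7.32, 7.63 and 7.18 with laser, and 7.29, 7.28, 7.55 and 7.50 with bur. These groups overlapped and the fold changes were 0.006 ± 0.13 and 0.047 ± 0.13, against 1.23 and 0.92 for the probe starting at base 353. For Rpl14 the probes starting at bases 178, 403 and 656 gave 0.47, 0.78 and 1.54 with laser and 0.086, 0.40 and 1.07 with bur. For Rpl13a the first probe gave −0.10 ± 0.13 and −0.17 ± 0.13, and the last gave 0.61 ± 0.10 and 0.56 ± 0.10. Rpl17, a protein at the peptide exit of the large subunit, gave −0.25 ± 0.13 and −0.45 ± 0.13 at its first probe and 0.87 ± 0.12 and 0.76 ± 0.12 at its last. For Rpl17 the bur comparison thus passed in opposite directions with the 2 probes (adjusted p over all probes 0.017 for the first and 0.00076 for the last). The last Rpl17 probe shares 37 bases with a probe named for a predicted transcript.

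The reverse also occurred. Rpl35, at the peptide exit of the large subunit, gave 1.45 ± 0.19 at its first probe and 0.996 ± 0.13 at its last with laser. A probe in the middle of Rpl27a gave the largest value of any ribosomal protein probe, 2.57 with laser and 2.43 with bur, while the probes on either side gave 0.25 and 0.79 with laser. That probe read 1.83, 2.03, 1.75 and 1.91 in control, 4.94, 4.96, 4.24 and 3.68 with laser, and 4.71, 4.67, 3.98 and 3.87 with bur, so its treated arrays also split by slide. Each gene's value above is that of its brightest probe.

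**Figure D5:**
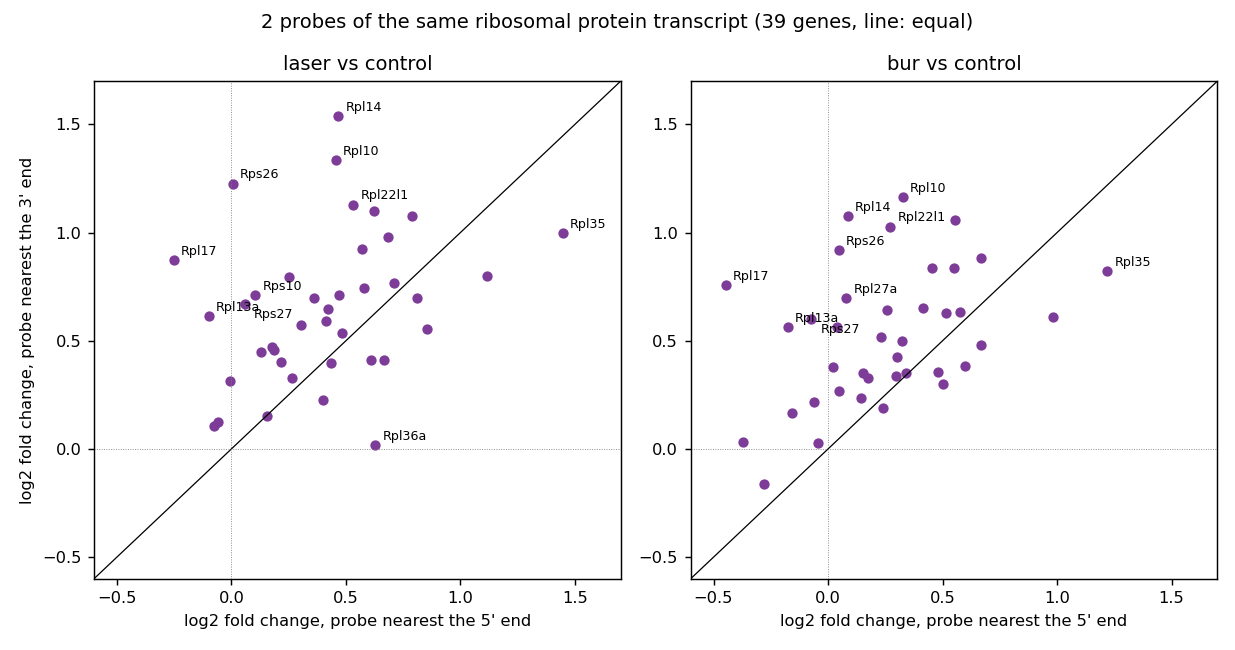
For 39 ribosomal protein transcripts with 2 probes at least 100 bases apart, the log2 fold change against control of the probe nearest the 5′ end (x axis) and nearest the 3′ end (y axis), on the percentile scale; the line marks equal values. Of the 39 genes 29 (laser) and 32 (bur) lie above the line, and the largest distance is 1.22, for Rps26 with laser.

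Signals of near-identical copies cannot be parted by hybridization. The probes used for 18 of the 87 genes share at least 30 bases in a row with a probe of another name, and for 4 of these the other name is itself in the list, as with Rpl30 and Rpl30l1 or Rpl37a and Rpl37a-ps1. Values of these 18 genes are uncertain as to the copy. The 60-base probes of Rps27l and Rps4y2, whose rises held under every scaling, were not among them.

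Genes with and without a TOP tract had close medians. On the percentile scale the 43 genes with a tract had a median of 0.59 with laser and 0.48 with bur, with 37 and 28 higher and 0 and 1 lower. The 25 without one had medians of 0.58 and 0.50, with 19 and 17 higher and 0 lower. Among all genes 32.2% and 32.7% were higher. Of other promoter letters, CCGGAAG, searched on both strands of the 300 bases, was present in 21 of the 68 windows (30.9%) against 8.75% of all windows, and in 3 of the 21 a match overlapped the tract. CACGTG, the core to which Myc binds, was present in 5 (7.35%) against 6.42%.

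Between laser and bur, 0 of the 87 genes passed in either direction with limma on the percentile scale, where 1 of 22937 genes (0.00436%) was higher and 0% were lower. In the authors' values 0 of the 87 passed, against 0.00456% of all genes, and on the percentile scale 4 of the 87 had an unadjusted p below 0.05, all higher with laser, against 6.5% of all genes. The smallest adjusted p was 0.705, for Rpl15. The fold change of laser over bur was positive in 84 of 87 genes on the percentile scale with a median of 0.13, and in 41 of 87 under quantile normalization with a median of −0.01. The exceptions on the percentile scale were Rpl35a, Rpl3l and Rps19bp1. On that scale 51.8% of all genes were positive, with a median of 0.01. So were 776 of the 1069 other genes of the brightest 5%, with a median of 0.08. Under quantile normalization 524 of those 1069 were positive. The groups did not overlap for 3 genes, Rpl15, Rpl26 and Rpl7l1, all higher with laser, against 2.06% of all genes higher and 1.51% lower. Within the first treated slide the median was 0.19 and within the second 0.06.

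All control arrays were on a slide of their own and the treated arrays on 2 others, so slide and treatment cannot be told apart in the comparisons with control. With the treated arrays of the first slide alone the laser comparison had 62 genes higher and 1 lower, and with those of the second 63 and 0. For bur the counts were 44 and 2, and 53 and 0. Groups did not overlap in the upward direction for 72 genes with laser and 61 with bur, against 31% and 30.4% of all genes.

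Other genes of protein synthesis were read from lists set beside the ribosomal proteins. Of the 4 measured ribosomal proteins outside the name rule, 3 were higher in each comparison on the percentile scale, among them Fau (0.44 ± 0.10 with laser) and Rpsa (0.39), while Rack1 gave 0.09. Under quantile normalization 0 of the 4 passed as higher in either comparison, and Rack1 passed as lower with bur. Fau encodes a ribosomal protein fused to a ubiquitin-like domain. The 19 Diamond-Blackfan genes are all in the list of 87. On the percentile scale 18 were higher with laser (94.7%) and 12 with bur (63.2%). The shares were 82.8% and 65.5% for the 87 genes and 32.2% and 32.7% for all genes. Under quantile normalization 3 of the 19 were higher and 1 lower in each comparison. Among all genes 26.7% and 26.2% were then higher and 20.7% and 21.7% lower.

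The counts of the next lists are read against the shares of all genes on the percentile scale, 32.2% higher and 17.6% lower with laser and 32.7% and 18.3% with bur. Of 74 mitochondrial ribosomal proteins 29 were higher (39.2%) and 6 lower (8.11%) with laser and 24 (32.4%) and 11 (14.9%) with bur, with medians of 0.24 and 0.13 beside 0.21 and 0.23 for all genes. Mrps7 (1.23 and 0.93), Mrps34 (0.97 and 0.75) and Mrpl20 (0.85 and 0.76) had the smallest adjusted p of that list. Under quantile normalization the mitochondrial counts were 20 and 10, and 15 and 14. Of 39 ribosome biogenesis factors 13 were higher (33.3%) and 5 lower (12.8%) with laser and 11 (28.2%) and 9 (23.1%) with bur, shares near those of all genes, and quantile normalization gave 9 and 7, and 7 and 11. Nop56, a box C/D particle protein, rose by 0.94 and 0.91, while Dkc1, the pseudouridine synthase dyskerin, fell by 1.08 and 1.01 and Utp20, a small subunit processome protein, fell by 1.18 and 1.40 on the log2 scale. These 3 kept their direction under quantile normalization.

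Of 14 genes of RNA polymerase I and its factors, which make the ribosomal RNA, 7 were higher (50%) and 1 lower with laser and 5 (35.7%) and 2 with bur under both scalings, with Taf1d (0.84 and 0.76) and Rrn3 (0.75 and 0.63) at the top. Of 16 elongation factors and other TOP genes, whose mRNAs carry the same kind of start, 6 were higher (37.5%) and 3 lower (18.8%) with laser and 5 and 4 with bur on the percentile scale, near the shares of all genes. Quantile normalization turned the balance to 3 higher and 6 lower with laser and 2 and 7 with bur, with a median of −0.25 and −0.24. On the percentile scale Hnrnpa1 (1.11 with laser) and Eef1g (0.95 and 0.85) rose and Pabpc1, the poly(A) binding protein, fell by 0.92 and 0.84. Initiation factors gave 6 higher (18.2%) and 3 lower of 33 with laser and 6 and 7 (21.2%) with bur, and 2 and 8, and 2 and 15, under quantile normalization, with Eif1a (1.12 and 0.76) higher and Eif2b4 (−0.59 and −0.68) lower on the percentile scale.

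Among 20 genes of the mTOR and Myc axis 8 were higher (40%) and 3 lower (15%) with laser and 9 (45%) and 2 (10%) with bur, and 6 and 4, and 8 and 5, under quantile normalization. Eif4ebp2, an mTOR-controlled repressor of translation, rose by 0.78 and 0.61, and Mxd4, an antagonist of Myc, by 1.04 and 1.26. Of the 10 Rps6k kinases 3 were higher (30%, near the share of all genes) and 3 lower in each comparison, with Rps6kb1, the kinase that phosphorylates ribosomal protein S6, at 0.67 and 0.54.

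Markers of the cells in the samples were also set against control, on the percentile scale. Among all genes 32.2% were higher and 17.6% lower with laser, and 32.7% and 18.3% with bur. Osteoblast markers, which define bone tissue, were all measured (11 of 11), and 11 were higher with laser and 9 with bur, their mean level running from 4.91 to 5.40 on the control arrays and from 6.09 to 6.52 on the treated arrays. Of 12 erythroid markers 11 were lower in each comparison, with means of 3.43 to 4.31 in control and −1.86 to 2.42 in treated bone. Granulocyte precursor markers were lower for 7 of 8 measured genes, Ltf not being among the genes tested, and cell cycle genes for 15 of 15 in each comparison. Of 11 B cell markers 6 were lower with laser and 5 with bur, and of 9 T and NK cell markers 6 and 5. Neural markers were lower for 6 of 8 in each comparison. Of 8 monocyte and macrophage markers 2 were higher and 4 lower with laser, and 1 and 4 with bur. Of the 8 skeletal muscle markers 0 passed. Osteocyte markers were higher for 8 of 9 with laser and 9 of 9 with bur, with Fgf23 not among the genes tested. The exception with laser was the sclerostin gene Sost, lower there (−0.80 ± 0.30, adjusted p = 0.046) and higher with bur (0.88 ± 0.30, adjusted p = 0.031). Its difference between laser and bur did not pass (−1.68 ± 0.30, adjusted p = 0.248). Fewer cells of a type and less RNA per cell cannot be told apart in bulk bone, and the part of these cell markers in the ribosomal protein values was not tested.

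Precision was limited by the 4 arrays per group. The arrays had 67.8% to 73.7% of spots well above background, a 75th percentile signal of 197 to 383 and 0 saturated spots.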

How the data were processed

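Spot intensity was read from the scanner output the authors deposited. Agilent Feature Extraction 11.0.1.1 had quantified it and subtracted background, per the file headers. Array coordinates are on RGSCv3.4 per the file headers. A log2 value table, quantile-normalized by the authors, and comparison tables with log2 fold changes and adjusted p-values were deposited too, by a model not given in the sources used here.

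From 62976 spots per array, leaving out controls and outliers, log2 processed signals were averaged by probe and set relative to the array's 75th percentile. Probes well above background on at least 4 of 12 arrays were kept (30134), and the brightest probe stood for a gene (22937 genes). limma 3.58.1 in R 4.3.3 fitted group means over the 12 arrays, and its two-sided p-values were adjusted by Benjamini-Hochberg over all genes. Errors after ± are limma's moderated SE with 4 arrays per group. The fit was tested on simulated data. RefSeq (GRCr8) named the accession of 79 of the 87 probes and gave another symbol for 3. Named genes were the 4 largest rises and falls per comparison among genes that passed with no overlap, the stalk, 5S, reference and paralog genes with their core genes, and up to 3 genes per other list. Others were named after their values were seen. The members and lists were chosen with earlier results of these data known. Some items are not reported here.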

Additional observations from a re-analysis of the deposited data

Results flagged for a closer look

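Of 96 groups of 4 arrays tested for a value far from the other 3, 5 had one, and chance gives about 1 in 20. Rpl22 read 7.34 on laser replicate 4 against 7.65 to 7.68 on the others. Rpl27 read 3.96 on bur replicate 2 against 4.06 to 4.07. Rpl3 read 7.56 on laser replicate 3 against 7.37 to 7.38, and Rps2 read 6.46 on the same array against 6.03 to 6.09. Rpl39l read −2.73 on control replicate 4 against −3.13 to −3.07.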

How the results depend on the processing

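Against control, the count of higher ribosomal protein genes was 72 for laser and 57 for bur. It fell to 15 and 15 under quantile normalization, to 20 and 23 with limma on the authors' deposited table, and for bur to 26 under median centring. The counts of lower genes, 0 and 1, became 8 and 9 under quantile normalization and 11 and 16 in the authors' values. For laser 1 gene was lower with the percentile over probes detected on all arrays, normexp, the filter on all 12 arrays, 2 groups in the fit, the replicate block, the intensity trend, array weights, or the treated arrays of the first slide. For bur 0 were lower with normexp, no filter, slide as a block or the treated arrays of the second slide, and 2 with the replicate block or the treated arrays of the first slide. The medians of 0.59 and 0.48 became 0.050 and 0.10 under quantile normalization, 0.10 and 0.10 in the authors' values and, for bur, 0.30 under median centring. The laser against bur median of 0.13 became −0.014 and 0.0023 under quantile normalization and in the authors' values. Leaving out 1 array gave 67 to 72 higher and 0 to 1 lower for laser, 52 to 60 and 0 to 2 for bur, and medians of 0.55 to 0.63, 0.44 to 0.54 and, for laser against bur, 0.08 to 0.18.

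No label says whether the replicate numbers pair the samples, and the main fit did not pair them. Same-numbered arrays correlated by 0.05 to 0.58 in their deviations, all positive. The highest were laser with bur for replicates 1, 3 and 4 (0.58, 0.53 and 0.40). Differently numbered arrays were not set beside them, so these values cannot decide whether the numbers pair the samples. The replicate block left 71 higher for laser and 57 for bur.

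Signs turned for some named genes. With quantile normalization, laser, Rpl11 gave −0.18, Rpl3 −0.44, Rpl5 −0.50, Rplp2 −0.45, Rps18 −0.17, Rps19 −0.20 and Rps27 −0.039, and for bur Rpl11 −0.082, Rpl5 −0.42, Rpl7 −0.046 and Rplp2 −0.40. In the authors' values, laser, Rpl13a gave −0.37, Rpl3 −0.46, Rpl5 −0.41, Rps18 −0.12, Rps19 −0.21 and Rps27 −0.31, and for bur Rpl13a −0.29, Rpl5 −0.59, Rplp2 −0.27, Rps19 −0.23 and Rps27 −0.29. Rps19bp1 gave −0.0091 and −0.018 with normexp. The cause was not tested, though the authors' values carry another probe for 42 genes. The slide settings were chosen after seeing the data.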
